A study of Homo sapiens with 4 samples.

Results

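The 10 genes described here encode the E2F transcription factors E2F1 to E2F8 and the RB-like pocket proteins RBL1 (p107) and RBL2 (p130). They were taken by gene symbol from a table of 56638 symbols, and all 10 were found and passed the expression filter, among 14018 genes tested. MV4;11 cells, a human line established from an acute myeloid leukaemia, gave the RNA for a single comparison with 2 libraries in each group. The vehicle group was parental cells labelled as treated with DMSO, although the treatment protocol of the labels names PBS. The treated group was the same parental cells given CU-T12-9, an agonist of the TLR1/TLR2 receptor pair, at 1 µg/mL. Both groups were collected after 24 h, and no genotype was altered in either. All libraries come from 1 cell line, and the labels do not say whether the 2 libraries of each group are separate cultures. The p-values therefore cover the spread between libraries alone, and that spread may be technical.

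E2F factors bind promoters of genes needed for DNA replication and cell division, most of them as a dimer with a DP protein. Pocket proteins (RB1, RBL1 and RBL2) bind and restrain them until cyclin-dependent kinases phosphorylate the pocket protein as a cell enters S phase. E2F1, E2F2 and E2F3 are known as activators that pair with RB1. E2F4 and E2F5 are known as repressors that pair with RBL1 and RBL2, and with the MuvB proteins they form the DREAM complex of resting cells. E2F6 represses without a pocket protein, as a subunit of a Polycomb complex, and E2F7 and E2F8 are atypical repressors that need no DP partner. Several E2F genes and RBL1 are themselves E2F targets, which is why their promoters are shown first.

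RefSeq promoter windows (GRCh38.p14, 250 bases before to 50 after a transcription start) were matched for 8 of the 10 members, E2F3 and RBL2 with 2 starts each. The members not matched were E2F5 and E2F8. The words TTTCCCGC, TTTGGCGC, TTTGCCGC and TTTCGCGC, which spell the E2F consensus, were searched on both strands. At least 1 of them stood in 4 of the 10 windows of the members, against 3.31% of the 35116 windows of the whole table and 16 of 39 windows (41%) of a list of textbook E2F targets. The 4 windows belonged to E2F1, E2F2, RBL1 and the first start of E2F3. The 150 bases before the start are printed for these genes, with the E2F words in capitals, 5′ to 3′ on the strand of the gene. E2F1 lies at chr20:33686386-33686535, minus strand, E2F2 at chr1:23531234-23531383, minus strand, E2F3 at chr6:20401729-20401878, plus strand and RBL1 at chr20:37095998-37096147, minus strand.
E2F1: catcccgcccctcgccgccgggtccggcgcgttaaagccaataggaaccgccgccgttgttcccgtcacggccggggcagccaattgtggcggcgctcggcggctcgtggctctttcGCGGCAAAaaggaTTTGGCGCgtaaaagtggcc
E2F2: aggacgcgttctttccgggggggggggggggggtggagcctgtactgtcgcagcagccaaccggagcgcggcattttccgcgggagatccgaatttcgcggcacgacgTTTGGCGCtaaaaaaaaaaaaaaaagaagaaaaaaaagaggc
E2F3: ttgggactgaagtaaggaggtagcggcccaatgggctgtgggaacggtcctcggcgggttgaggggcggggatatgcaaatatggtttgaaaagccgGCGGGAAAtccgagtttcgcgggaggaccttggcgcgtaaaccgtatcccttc
RBL1: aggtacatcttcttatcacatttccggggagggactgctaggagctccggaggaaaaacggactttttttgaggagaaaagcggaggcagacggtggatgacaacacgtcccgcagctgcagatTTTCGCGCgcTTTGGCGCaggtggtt

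E2F1 and RBL1 each held 2 E2F words within 33 bases of the start, from -33 and -20 in E2F1 and from -26 and -16 in RBL1. E2F2 held 1 at -42 and E2F3 held 1 at -53. None of these words stood in the windows of E2F6, E2F7 and the second starts of E2F3 and RBL2. E2F7, without a word, fell 4.49-fold under CU-T12-9, and E2F3, with 1, fell 1.6-fold. A link between words and changes was not tested. The windows of E2F4 (chr16:67192005-67192154, plus strand) and of the first start of RBL2 (chr16:53434321-53434470, plus strand) also held none and are printed next.
E2F4: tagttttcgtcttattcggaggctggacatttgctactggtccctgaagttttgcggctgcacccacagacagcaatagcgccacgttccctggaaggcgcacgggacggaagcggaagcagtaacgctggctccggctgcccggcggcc
RBL2: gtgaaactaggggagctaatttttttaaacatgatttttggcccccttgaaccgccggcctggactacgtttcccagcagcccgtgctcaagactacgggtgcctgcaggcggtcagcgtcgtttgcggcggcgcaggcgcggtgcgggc

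The words TTTGAA and TTCGAA of the CHR element, through which MuvB complexes bind mitotic genes, were searched in the same way. They stood in 2 of the 10 windows, E2F3 at -65 and RBL2 at 25 after the start, against 16.4% of all windows and 13 of 21 windows of a G2/M list. No CHR word overlapped an E2F word in these windows. These matches describe letters in 1 window per annotated start and were not tied to binding.

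**Figure D1:**
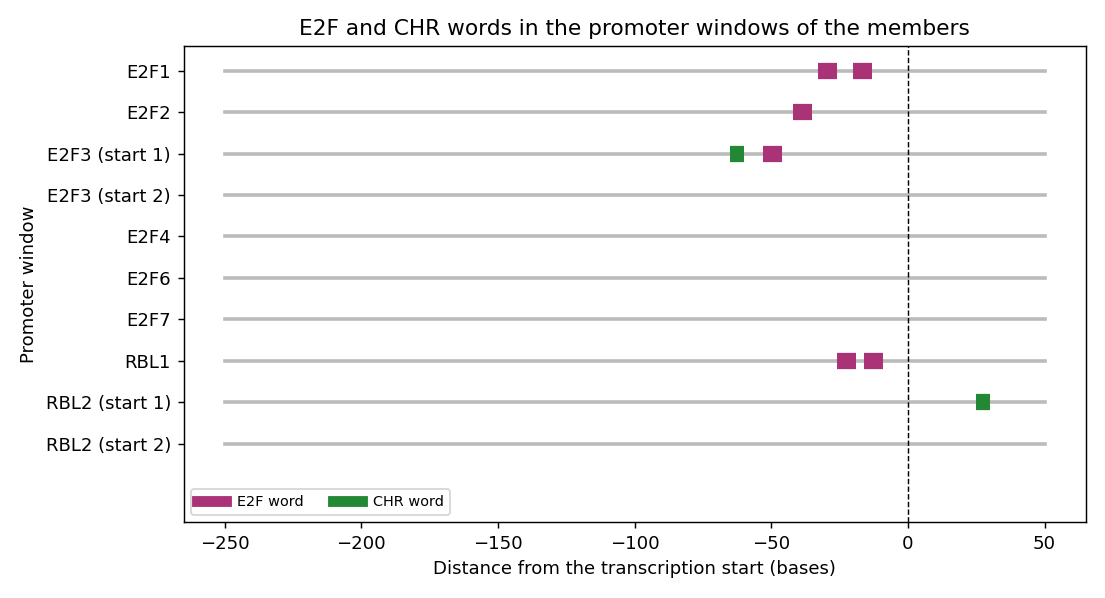
Position of E2F words (purple) and CHR words (green) in the 10 promoter windows of 8 members, drawn as distance in bases from the annotated transcription start (dashed line). The E2F words of E2F1, E2F2, E2F3 and RBL1 all lie within 53 bases before the start.

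Library totals ran from 23087102 to 25867733 reads. Values below are CPM, read counts scaled by edgeR to a common library size after TMM adjustment, in which 1 read was worth 0.0384 to 0.0442 CPM and a floor of 3 reads 0.115 to 0.133 CPM, for counting error only. All 10 myeloid markers checked (CD33, FLT3, SPI1 and others) were above 1 CPM in every library. Their summed level was 1153 to 1155 CPM under DMSO and 1281 to 1309 CPM under CU-T12-9, a sum over genes that moved in opposite directions. CD33, FLT3 and CSF3R were lower in both CU-T12-9 libraries than in both DMSO libraries. The other myeloid markers were higher in both. Of 6 lymphoid markers 1, NKG7, was above 1 CPM in every library. ITGA2B was so among 6 erythroid and megakaryocytic markers, the other 5 being at 0 in all libraries, and none of 5 epithelial and stromal markers was, 3 of them being at 0. The summed lymphoid level was 16 to 16.4 CPM under DMSO and 29.8 to 31.6 CPM under CU-T12-9, with CD3D at 0 in all libraries. Of 13 mitochondrially encoded mRNAs, 8 were higher and 1 lower under CU-T12-9, where 65.2% of all genes tested were called. MT-ND1 rose by 0.53, MT-CO1 by 0.50 and MT-ND6 fell by 0.61 on the log2 scale. Tested against a fold of 1.5, 0 of the 13 mitochondrial mRNAs were called higher and 0 lower. Without the second DMSO library 4 were higher, and without the second CU-T12-9 library 3 were lower. The MT-ND6 call was lost in DESeq2 (adjusted p = 0.199), and its log2 fold change was -1.08 without the first and -0.25 without the second CU-T12-9 library. The part of these changes in the results was not tested.

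Of the 10 members, 7 fell under CU-T12-9, 1 rose and 2 did not pass the test (edgeR quasi-likelihood test, Benjamini-Hochberg adjusted p under 0.05 over all genes tested). In this comparison 65.2% of all genes tested were called, 33.2% as lower and 32.0% as higher. E2F8, E2F2, E2F1 and E2F7 fell at least 4-fold, which 2.35% of all genes tested did. RBL1 fell 2.99-fold, E2F3 1.6-fold and E2F4 1.23-fold, while RBL2 rose 1.44-fold. E2F5 and E2F6 did not pass. The median log2 fold change of the members was -1.28, against 0.00 for all genes tested. The scaling brings that last median near 0, so a change in the total RNA per cell would not be seen. For all 10 members the groups did not overlap, which also held for 82.3% of all genes tested. In these bulk samples, fewer cells with a transcript and less of it per cell cannot be told apart, including fewer cells in the phase of the cycle in which it is made.

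**Figure D2:**
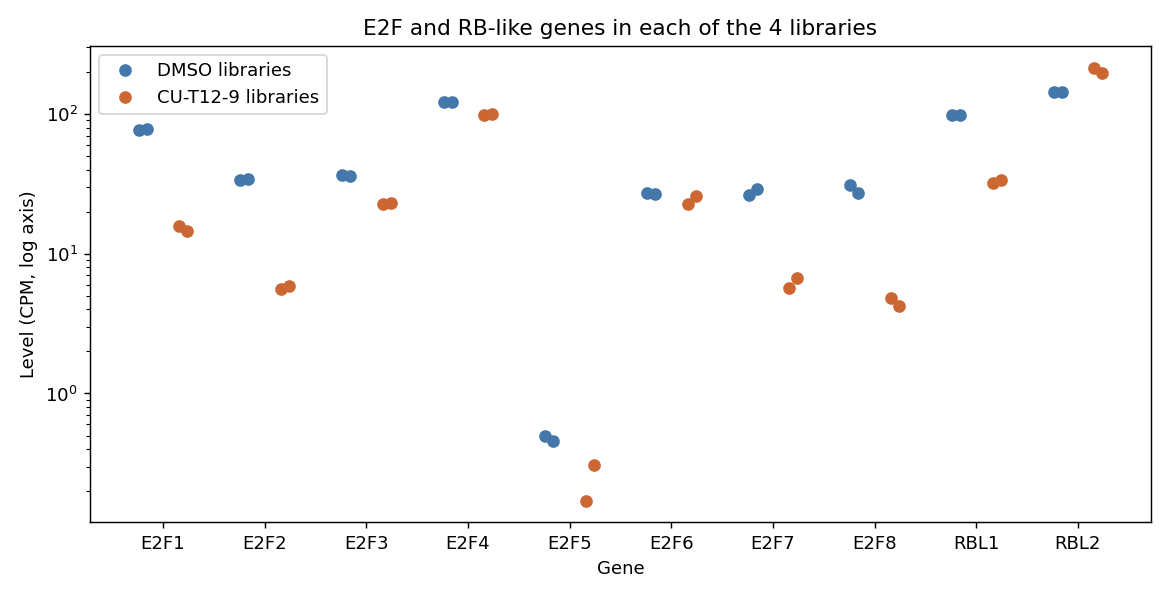
Level of each member (CPM, log axis) in each of the 2 DMSO libraries (blue) and the 2 CU-T12-9 libraries (orange). The largest gaps between groups are in E2F8, E2F2, E2F1 and E2F7, and RBL2 is the member that lies higher under CU-T12-9.

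The activators did not fall to the same extent. E2F1, the best known inducer of S phase, stood at 77.1 and 78.3 CPM in the DMSO libraries and at 15.8 and 14.5 CPM in the CU-T12-9 libraries. Both treated libraries were thus far below both vehicle libraries, with a log2 fold change of -2.36 (SE 0.07, edgeR adjusted p = 9.07e-09). E2F2, its close paralog, went from 33.5 and 34.4 CPM to 5.60 and 5.88 CPM, a log2 fold change of -2.56 with an SE of 0.09 (edgeR adjusted p = 2.56e-08). Only 0.742% of the genes tested had a lower log2 fold change than E2F2, and 1.14% a lower one than E2F1.

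E2F3, the third activator, stood at 36.9 and 36.1 CPM under DMSO and at 22.7 and 23.1 CPM under CU-T12-9. The groups did not overlap, but its log2 fold change of -0.67 (SE 0.07, edgeR adjusted p = 2.65e-05) was smaller than those of E2F1 and E2F2. Tested against a fold of 1.5 it was not called (adjusted p = 0.131). The ratio of E2F3 to E2F2 reads was 1.10 and 1.05 in the DMSO libraries and 4.05 and 3.93 in the CU-T12-9 libraries. Such a ratio within a library does not depend on the scaling between libraries. An exact two-sided permutation test of 2 libraries against 2 cannot give a p below 0.333, and no other test of the ratio was run. The table has 1 row for E2F3, so its 2 starts were not separated.

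Of the repressors bound by pocket proteins, E2F4 was the most abundant E2F transcript and E2F5 was almost unread. E2F4 stood at 121.8 and 121.6 CPM under DMSO and at 98.1 and 100.2 CPM under CU-T12-9, a log2 fold change of -0.30 (SE 0.05, edgeR adjusted p = 6.86e-04). This was the smallest change among the called members, and it was not called against a fold of 1.5 (adjusted p = 1). For E2F5, the DMSO libraries held 13 and 11 reads and the CU-T12-9 libraries 4 and 7. Its log2 fold change of -0.99 had a 95% interval from -2.06 to 0.08 and did not pass (edgeR adjusted p = 0.0946), so at this depth neither no change nor a 4-fold fall lies outside the interval.

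E2F6, the Polycomb-linked member, stood at 27.0 and 26.9 CPM under DMSO and at 22.6 and 25.7 CPM under CU-T12-9. The treated libraries differed from each other by more than the nearer of them did from the vehicle libraries. The log2 fold change of -0.16 had a 95% interval from -0.35 to 0.03 (edgeR adjusted p = 0.123). Without the second CU-T12-9 library it was called lower, with a log2 fold change of -0.26 (adjusted p = 0.00345).

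Both atypical members fell by amounts like those of E2F1 and E2F2. E2F7 went from 26.3 and 29.2 CPM to 5.64 and 6.72 CPM, a log2 fold change of -2.17 (SE 0.11, edgeR adjusted p = 2.87e-07). E2F8 went from 31.2 and 27.3 CPM to 4.83 and 4.20 CPM, the lowest log2 fold change of the members at -2.69 (SE 0.12, edgeR adjusted p = 1.01e-07). Both encode proteins with 2 DNA-binding domains that repress E2F1 among other genes. For both, the spread within a group was small beside the gap between groups. The ratio of E2F7 to E2F8 reads was 0.841 and 1.07 under DMSO and 1.17 and 1.6 under CU-T12-9, and the gap between the groups was smaller than the spread within either.

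The RB-like genes moved in opposite directions. RBL1, whose product p107 is known to be made mainly in cycling cells, stood at 98.3 CPM in both DMSO libraries and at 32.1 and 33.7 CPM in the CU-T12-9 libraries. Its log2 fold change was -1.58 (SE 0.06, edgeR quasi-likelihood adjusted p = 3.48e-08). RBL2, whose product p130 is known as the main pocket protein of resting cells, went from 143.7 and 142.7 CPM to 215.1 and 198.0 CPM, a log2 fold change of 0.53 (SE 0.06, edgeR adjusted p = 3.16e-05). The rise of RBL2 was larger than the spread of either group, though it was not called against a fold of 1.5 (adjusted p = 1). There were 1.46 and 1.45 RBL2 reads per RBL1 read under DMSO and 6.70 and 5.87 under CU-T12-9.

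RB1, the third pocket protein gene and not one of the 10, averaged 92.4 ± 1.96 CPM in the vehicle libraries and 108.0 ± 9.99 CPM in the treated ones (SD, n = 2 each). It was called higher, with a log2 fold change of 0.22 (SE 0.07, edgeR adjusted p = 0.0172), a call lost without the first DMSO library (adjusted p = 0.114). The DP genes encode the dimer partners of E2F1 to E2F6. TFDP1 fell from 357.9 ± 3.30 to 184.3 ± 3.0 CPM, a log2 fold change of -0.96 with an SE of 0.05 (edgeR adjusted p = 2.14e-07). TFDP2 fell from 17.1 ± 0.200 to 14.5 ± 0.891 CPM (log2 fold change -0.24, edgeR adjusted p = 0.0435). That last call was lost with DESeq2 size factors, in DESeq2 and with the replicate number as a block (adjusted p = 0.0595, 0.218 and 0.0554), and without either DMSO library or the first CU-T12-9 library (adjusted p = 0.142 to 0.196). TFDP3 had no read in any library.

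**Figure D3:**
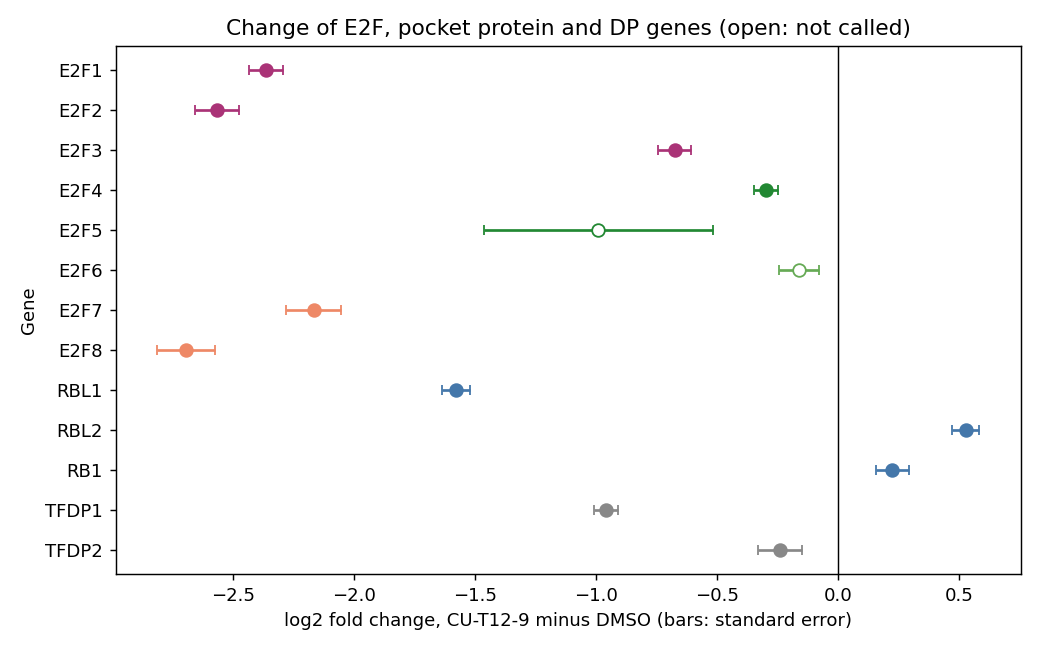
Log2 fold change (CU-T12-9 minus DMSO) of the 10 members and of RB1, TFDP1 and TFDP2, with standard errors as bars and open symbols for genes that were not called. E2F1, E2F2, E2F7 and E2F8 lie beyond -2, RBL1 at -1.58, and RBL2 and RB1 to the right of 0.

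Levels between genes were compared per kilobase of the longest GENCODE transcript. Under DMSO the order was E2F4 at 46.5 ± 0.0660, E2F1 at 31.0 ± 0.355, RBL2 at 29.2 ± 0.144 and RBL1 at 17.3 ± 0.00311 CPM per kilobase (SD, n = 2). E2F8 at 8.31 ± 0.792, E2F6 at 7.82 ± 0.0187 and E2F3 at 7.69 ± 0.120 did not differ beyond the spread of E2F8, and E2F2 at 6.55, E2F7 at 4.83 and E2F5 at 0.0950 followed. Under CU-T12-9 RBL2 led at 42.1 ± 2.46, before E2F4 at 37.9 ± 0.566 CPM per kilobase. E2F6 at 7.0 ± 0.644 then came before E2F1 at 6.04 ± 0.375 and RBL1 at 5.79 ± 0.200, the last 2 overlapping between libraries. E2F3 stood at 4.82, E2F8 at 1.28, E2F2 at 1.11 and E2F7 at 1.08 CPM per kilobase, E2F2 and E2F7 overlapping, and E2F5 at 0.0476. The longest transcripts of E2F4 and E2F5 are not protein-coding. With the longest coding transcript E2F4 stood at 47.3 under CU-T12-9, above RBL2.

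The summed level of the 8 E2F genes was 113.0 and 112.8 CPM per kilobase in the DMSO libraries and 58.6 and 60.0 in the CU-T12-9 libraries, values that carry no test of their own. E2F4 and E2F5 made up 41.3% of the sum in both DMSO libraries and 64.1% and 64.0% in the CU-T12-9 libraries, nearly all of it E2F4. E2F1 to E2F3 went from 39.8% and 40.4% to 20.7% and 19.6%, and E2F7 with E2F8 from 11.9% and 11.4% to 4.02% and 3.94%. E2F6 went from 6.93% and 6.92% to 11.2% and 12.4%. Within the activators the share of E2F1 in the sum went from 27.5% to 10.2% while that of E2F3 went from 6.81% to 8.13% (means of 2 libraries). A larger share here is a share of a smaller total, and neither E2F4 nor E2F3 was higher in CPM.

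**Figure D4:**
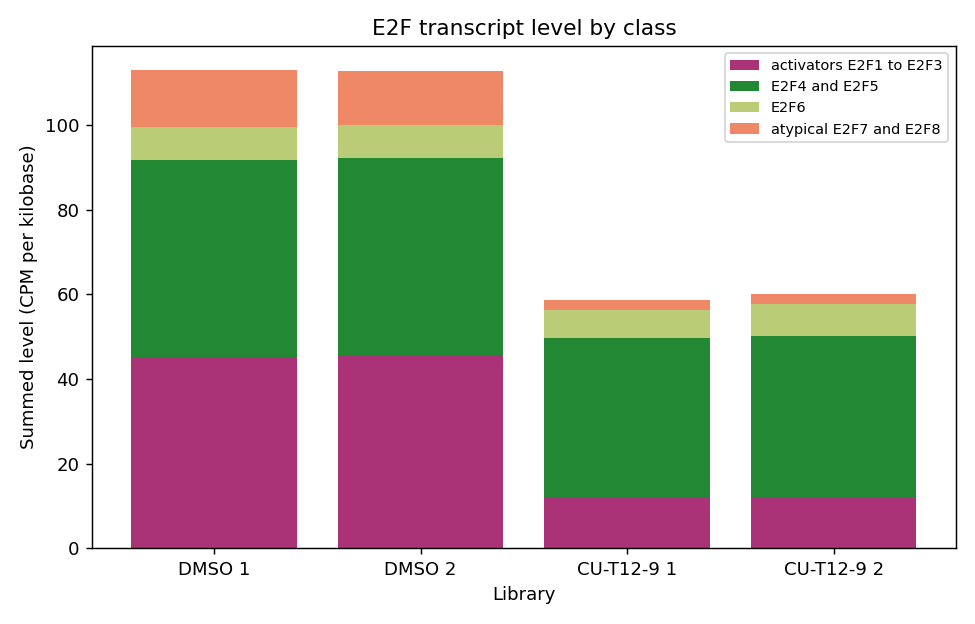
Summed level of the E2F genes (CPM per kilobase of the longest transcript) in each library, stacked by class. The total is 113.0 and 112.8 in the DMSO libraries and 58.6 and 60.0 in the CU-T12-9 libraries. On this scale E2F4 with E2F5 is the largest block in each. Without length correction E2F1 to E2F3 is the larger block under DMSO (41.8% against 34.5%).

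The genes around the members were taken from lists, some of which share genes. Of 30 textbook E2F targets of the G1/S transition, all 30 fell. Their log2 fold changes had a median of -2.20 and a range from -2.73 to -1.20. CDC45 and CDC6, which act at replication origins, fell from 85.9 ± 5.33 to 12.9 ± 1.70 CPM and from 132.5 ± 1.54 to 20.1 ± 0.991 CPM (SD, n = 2 in each group). UHRF1, which guides maintenance of DNA methylation, fell from 346.4 ± 7.66 to 54.5 ± 1.86 CPM. All 20 genes of the G2/M list, which DREAM and FOXM1 are known to control, fell as well, with a median of -1.81 and a range from -2.44 to -1.61. CDK1 fell by 2.44, BIRC5 (survivin) by 2.35 and the kinase gene AURKB by 2.18 on the log2 scale. The log2 fold changes of E2F1, E2F2, E2F7, E2F8 and RBL1 lay in the range of the G1/S list, whereas those of E2F3 and E2F4 were smaller than that of any gene in either list.

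The MuvB proteins bind either RBL1 or RBL2 with E2F4 or E2F5 in the DREAM complex, or MYBL2 and FOXM1 in cycling cells. Of 8 genes of this list 6 fell and 2 did not pass, where 33.2% of all genes tested were called lower. The median log2 fold change of the list was -1.39. Without the second CU-T12-9 library 1 of the 8 was called higher. MYBL2 fell from 230.5 ± 4.40 to 34.8 ± 2.53 CPM (log2 fold change -2.73), FOXM1 from 81.5 ± 1.85 to 19.8 ± 0.370 CPM (-2.04) and MYBL1 from 6.85 ± 0.300 to 1.91 ± 0.0784 CPM (-1.84). The genes of the MuvB proteins themselves, named after their values were seen, changed unevenly. LIN9 fell (log2 fold change -1.74), as did LIN54 (-1.04) and LIN52 (-0.27). RBBP4 (-0.13) and LIN37 (0.25) did not pass. The median change of all genes tested, as above, was 0.00 after scaling.

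Genes that act on pocket proteins moved in both directions. Over all genes tested 32.0% were called higher and 33.2% lower. Of 17 G1 cyclins, kinases and inhibitors, 6 rose, 9 fell and 2 did not pass, with a median of -0.21. The 3 genes with the largest rises in that list encode inhibitors of cyclin-dependent kinases. CDKN2B (p15), an inhibitor of CDK4 and CDK6, rose from 59 and 64 reads to 732 and 738 reads, or 2.47 ± 0.288 to 32.0 ± 0.929 CPM (a log2 fold change of 3.70 with an SE of 0.11). CDKN1C rose from 0.948 ± 0.396 to 2.62 ± 0.676 CPM, and CDKN1A (p21) from 107.5 ± 2.23 to 241.0 ± 15.0 CPM. CDC25A, a phosphatase that activates CDK2, fell by 2.41 and CCNE2, a cyclin partner of CDK2, by 2.31 on the log2 scale. The directions did not follow the roles throughout: the inhibitor genes CDKN2C and CDKN2D fell by 0.39 and 1.21, and the kinase gene CDK6 rose by 0.24 (all 3 named after their values were seen).

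Of 7 listed genes for ubiquitin ligases and their cofactors that act in the turnover of E2F proteins, 6 fell and 1 rose, and their median was -1.61 on the log2 scale. CKS1B, a cofactor of SKP2, fell by 2.34, FBXO5, an inhibitor of the anaphase-promoting complex, by 1.97 and CDC20, an activator of it, by 1.92. MDM2, known mainly as the ligase of p53, rose by 0.84. Of the 12 genes listed as partners of E2F6 in the Polycomb complex PRC1.6, 2 rose, 6 fell and 4 did not pass, with a median of -0.14. The share called was near that of all genes tested (65.2%). RYBP rose from 38.5 ± 0.0574 to 80.2 ± 10.5 CPM and the scaffold gene MGA by 0.47 on the log2 scale, while CBX3 fell by 1.03 and WDR5 by 0.68. The changes of MGA and WDR5 were not called against a fold of 1.5 (edgeR adjusted p = 0.0661 for WDR5).

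**Figure D5:**
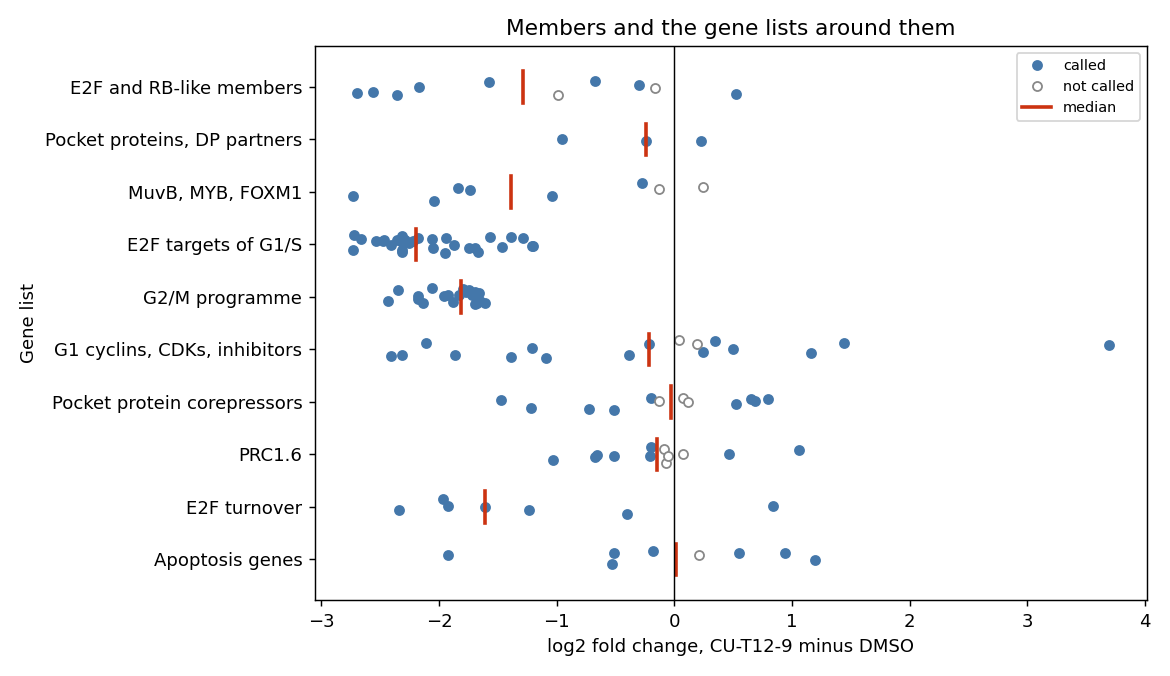
Log2 fold change of each tested gene in the members and in 9 of the lists around them, with medians as red bars, called genes filled and others open. All genes of the G1/S and G2/M lists lie below -1, while the other lists around the members spread to both sides of 0 or, for the MuvB and turnover lists, have 1 gene above 0.

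The genes with profiles most like a member were found by the Euclidean distance between log2(CPM + 0.5) profiles over the 4 libraries, each centred on its own mean, among 10444 other genes of at least 5 CPM. For E2F8, the member with the lowest log2 fold change, these were NEIL3, FANCI, CDC45, TMEM106C and CENPK, at distances of 0.0459 to 0.148. NEIL3, a DNA glycosylase gene, went from 26.2 to 4.0 CPM and FANCI, of the Fanconi pathway, from 138.9 to 24.5 CPM. For RBL2, the member with the highest, they were ZNRD1-AS1, KMT2E, KIDINS220, PHACTR2 and ZNF580, at distances of 0.00712 to 0.0264. KMT2E, which encodes a chromatin regulator, went from 75.5 to 107.6 CPM. With 4 libraries in 2 groups, likeness here means mostly a similar fold change.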

How the data were processed

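RNA of 2 DMSO and 2 CU-T12-9 libraries of MV4;11 was measured as read counts per gene. The authors deposited raw counts. Per the submitters' processing notes, FastQC 0.11.7, TopHat2 and featureCounts 1.5.2 were used with GRCh37. Not given in the sources used here are the annotation, the strand setting and the treatment of reads that map to several places, so reads of overlapping or antisense genes cannot be told apart. Rows named after members held few reads: E2F3-IT1 had 2, 0, 0 and 1, and E2F4P1 had 0. The members and lists were chosen with earlier results of these data known.

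Counts were analysed in R 4.3.3 with edgeR 4.0.16 and its quasi-likelihood test (group as the only term, filterByExpr, TMM, Benjamini-Hochberg adjustment over 14018 genes, threshold 0.05). Standard errors (SE) were obtained from each log2 fold change and its F statistic. The step was tested on simulated data with 200 changed genes, whereas 65.2% of all genes tested were called here. That simulation therefore does not cover scaling or errors at such a share. Named genes were all members, the pocket and DP list, and from each other list the 3 called genes with the largest change and at least 5 CPM in either group, plus up to 3 called against the majority of their list. No listed gene of the germline list met this rule. Lengths came from GENCODE 29 and promoters from RefSeq. Because those are of GRCh38, positions are given for promoters only. Alternatives were DESeq2 1.42.0, its size factors, limma-voom (limma 3.58.1), other filters, a replicate block, a test against a fold of 1.5 and leaving out each library. Library totals without TMM and coding lengths were added after seeing the data.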

Additional observations from a re-analysis of the deposited data

How the results depend on the processing

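The counts of 7 members lower and 1 higher were the same under DESeq2, DESeq2 size factors, limma-voom, no filter, a filter of 1 CPM, library totals without TMM and without any 1 library, except that leaving out the second CU-T12-9 library gave 8 lower. E2F6 then passed, at -0.26. With a library left out, the lone library of its group is assumed to vary like the others. E2F6 then ranged from -0.258 to -0.0376 and E2F5, with few reads, from -1.46 to -0.59. E2F5 had no value under the 1 CPM filter. Tested against a fold of 1.5, 1761 genes were higher and 1688 lower, with 5 members lower and 0 higher. E2F3 (-0.67), E2F4 (-0.30) and RBL2 (0.53) were not called there, since that test asks for a larger change. Of the list genes named by rule, 10 lost their call in that test. They were RB1, TFDP2, MGA, WDR5, KDM5A, ARID4A, CASP9, MT-ND1, MT-CO1 and MT-ND6. The log2 fold changes of E2F1, E2F2, E2F7, E2F8 and RBL1 kept their call under all 12 alternatives, with adjusted p of at most 1.26e-06. With the replicate number as a replicate block 4488 genes were higher and 4655 lower, and E2F1 stood at -2.36. TFDP2 alone among the named genes lost its call there (adjusted p = 0.0554). The labels do not say that the numbers pair samples, and deviations of same-numbered libraries correlated across genes at 0.00990. Under DESeq2 size factors and library totals, which are also relative scalings, the median log2 fold change of all genes was 0.01 and -0.01. Without length correction, the share of E2F1 to E2F3 in the E2F sum was 41.8% under DMSO and 24.6% under CU-T12-9, and 36.4% and 17.4% with coding lengths. The share of E2F4 with E2F5 without length correction was 34.5% and 55.8%, so E2F1 to E2F3 was then the larger class under DMSO. With coding lengths it was 46.8% and 69.0%.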

Other observations

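Corepressors that pocket proteins are known to recruit were called in shares near those of all genes tested, of which 32.0% were higher and 33.2% lower. Of 12 listed genes 4 rose, 5 fell and 3 did not pass, with a median log2 fold change of -0.03. The histone methyltransferase gene SUV39H1 fell from 53.0 ± 1.03 to 19.1 ± 0.292 CPM (SD, n = 2 in each group) and the histone chaperone gene RBBP7 by 1.22 on the log2 scale. ARID4A and ARID4B, named for binding RB1, rose by 0.65 and 0.80, and the demethylase gene KDM5A, also found as an RB1 partner, by 0.69. The rises of KDM5A and ARID4A were not called against a fold of 1.5 (edgeR adjusted p = 0.0553 and 0.145).

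Of 8 tested apoptosis genes listed as E2F1 targets 3 rose, 4 fell and 1 did not pass, with a median of 0.01. Over all genes tested 32.0% were called higher and 33.2% lower. TP73, a classical target of E2F1, fell from 14.2 ± 1.16 to 3.74 ± 0.518 CPM, whereas BCL2L11 (BIM) rose from 58.0 ± 1.90 to 132.9 ± 3.88 CPM and BBC3 (PUMA) from 19.6 ± 0.798 to 37.6 ± 3.64 CPM. CASP9 rose by 0.55, which was not called against a fold of 1.5 (edgeR adjusted p = 0.919). Both tested genes that host microRNAs tied to E2F fell, MIR17HG from 7.28 ± 0.670 to 2.82 ± 0.426 CPM and MCM7 from 587.0 ± 7.33 to 152.1 ± 4.91 CPM. Of 9 germline genes known to be silenced through E2F6, 2 had enough reads to be tested, 1 of which fell (2 fell without a filter on low counts or without the first CU-T12-9 library). That gene, SMC1B, named here after its values were seen, was read 43 and 31 times in the vehicle libraries and 5 and 11 times in the treated ones (log2 fold change -2.07, edgeR adjusted p = 0.00144).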
